A study of Mus musculus with 6 samples.

Results

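Endoplasmic reticulum (ER)-associated degradation, ERAD, was followed through 44 genes listed by name, all found by symbol among the 43271 Ensembl identifiers of the deposited count table. The list holds the enzymes and lectins that read the glycans of misfolded proteins, the membrane ubiquitin ligases and their partners, the E2 enzymes, the ATPase p97 with its cofactors, and proteins that receive substrates in the cytosol. RNA came from wild-type C57BL/6 mouse brain microvascular endothelial cells, grown as primary cultures and used at passages 2 to 6. The title of the series ties the work to ER stress and the blood-brain barrier. Confluent monolayers received dolutegravir (DTG, an inhibitor of HIV integrase) at 5000 ng/ml for 24 h in 3 libraries, or the solvent dimethyl sulfoxide (DMSO) for 24 h in 3 libraries. The medium of all cultures held vascular endothelial and epidermal growth factors, heparin, hydrocortisone and 5% serum, among other supplements. Whether the 3 libraries of a treatment stem from independent cultures is not stated, and the spread behind each p-value may therefore be technical.

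ERAD clears proteins that fail to fold in the ER. Glucosidases and a glucosyltransferase keep a glycoprotein in the folding cycle, mannosidases mark one that has lingered, and lectins carry it to a ligase in the membrane. The ligase HRD1 with its adaptor SEL1L moves the chain into the cytosol and tags it with ubiquitin, p97 pulls it free, and the proteasome destroys it. The unfolded protein response, through the transcription factors ATF6 and XBP1, is known to switch on part of this machinery.

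The libraries held 41162353 to 56316335 counts. The first principal component separated DTG from DMSO libraries, where the DTG libraries lay at -39.7, -55 and -53.6 in the order of their replicate numbers and the DMSO libraries between 49 and 50.1. Library names carry a P4 or a P5 tag and a number, and the labels define neither. The number is 2 for DTG replicates 1 and 2, 1 for DMSO replicates 1 and 2, and 3 for replicate 3 of each group. Whether a shared number marks a shared source is not stated. The name of DTG replicate 1 is spelled DIG in the count table and was read as DTG. DTG replicate 1 is the only DTG library with P5, and DMSO replicate 1 the only DMSO library with P4. All 10 endothelial markers were expressed, summing to 7107 to 7406 CPM (read counts scaled to the size of each library) in DTG and 11310 to 12334 CPM in DMSO libraries. They did not move alike. Pecam1, Kdr, Tek, Tie1, Erg, Cldn5 and Vwf were lower in every DTG library than in any DMSO library. Cdh5, Flt1 and Esam overlapped, with means of 2115, 419 and 563 CPM in DTG and 1874, 399 and 543 CPM in DMSO libraries. Pericyte markers summed to 1.55 to 1.89 CPM in DTG and 0.668 to 1.73 CPM in DMSO libraries, and Rgs5, Kcnj8 and Higd1b were at 0 in all 6. The astrocyte list summed to 205 to 251 CPM in DTG and 61.0 to 68.5 CPM in DMSO libraries, nearly all of it Gja1, a connexin gene that endothelial cells also express, with Aqp4 at 0. The microglial list summed to 120 to 179 CPM in DTG and 83.4 to 97.5 CPM in DMSO libraries, nearly all of it Cd68, with C1qa, C1qb and Tyrobp at 0. Neuronal markers summed to 2.21 to 6.04 CPM in DTG and 0.177 to 0.322 CPM in DMSO libraries, mostly Tubb3, with Map2 at 0. Smooth muscle markers, mostly Smtn, summed to 102 to 116 CPM in DTG and 157 to 185 CPM in DMSO libraries, and Cnn1 was at 0. Fibroblast markers summed to 7.76 to 8.69 CPM in DTG and 6.52 to 7.50 CPM in DMSO libraries. The part of these differences in the results was not tested. In RNA from whole cultures, fewer expressing cells and less RNA per cell cannot be told apart.

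Most of the ERAD genes were higher after DTG, and the size of the change depended strongly on the gene. Of the 43 members with enough counts to test, 27 rose (62.8%) and 5 fell, against 27.4% of all 14101 genes that rose and 29.3% that fell (edgeR quasi-likelihood F-test, adjusted p under 0.05). In either direction 32 of 43 passed, against 56.7% of all genes. The median log2 change was 0.43 over the tested members and -0.01 over all genes tested. A rise of at least 1 on the log2 scale was reached by 10 of 43 members, against 6.28% of all genes, and a fall of that size by 1, Svip, against 8.35%. The DTG and DMSO libraries did not overlap for 31 members that were higher and 5 that were lower, against 31.1% and 33.1% of all genes. Derl3 was not tested, and Svip entered the test through its DMSO libraries alone. Without Svip the numbers were 27 higher and 4 lower of 42, with a median of 0.47. The calls of the falls did not all hold when single libraries were left out. By edgeR 0 members were called lower without DTG replicate 2 or without DTG replicate 3. In each case 2 were lower at an unadjusted p under 0.05. The calls numbered 2 without DMSO replicate 2, 3 without DMSO replicate 1 and 3 without DMSO replicate 3. Fewer of all genes were also called lower in each of these runs than with all libraries. The log2 changes of the 5 members stayed negative whichever library was left out. They were -0.25 to -0.16 for Man1b1, -0.35 to -0.23 for Jkamp, -0.33 to -0.22 for Tmub1, -0.35 to -0.24 for Ngly1 and -1.98 to -1.08 for Svip. Scaling by library size alone moved the median of all genes by -0.17 on the log2 scale and gave 22 members higher and 7 lower, so changes are stated relative to the TMM scaling used here.

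**Figure D1:**
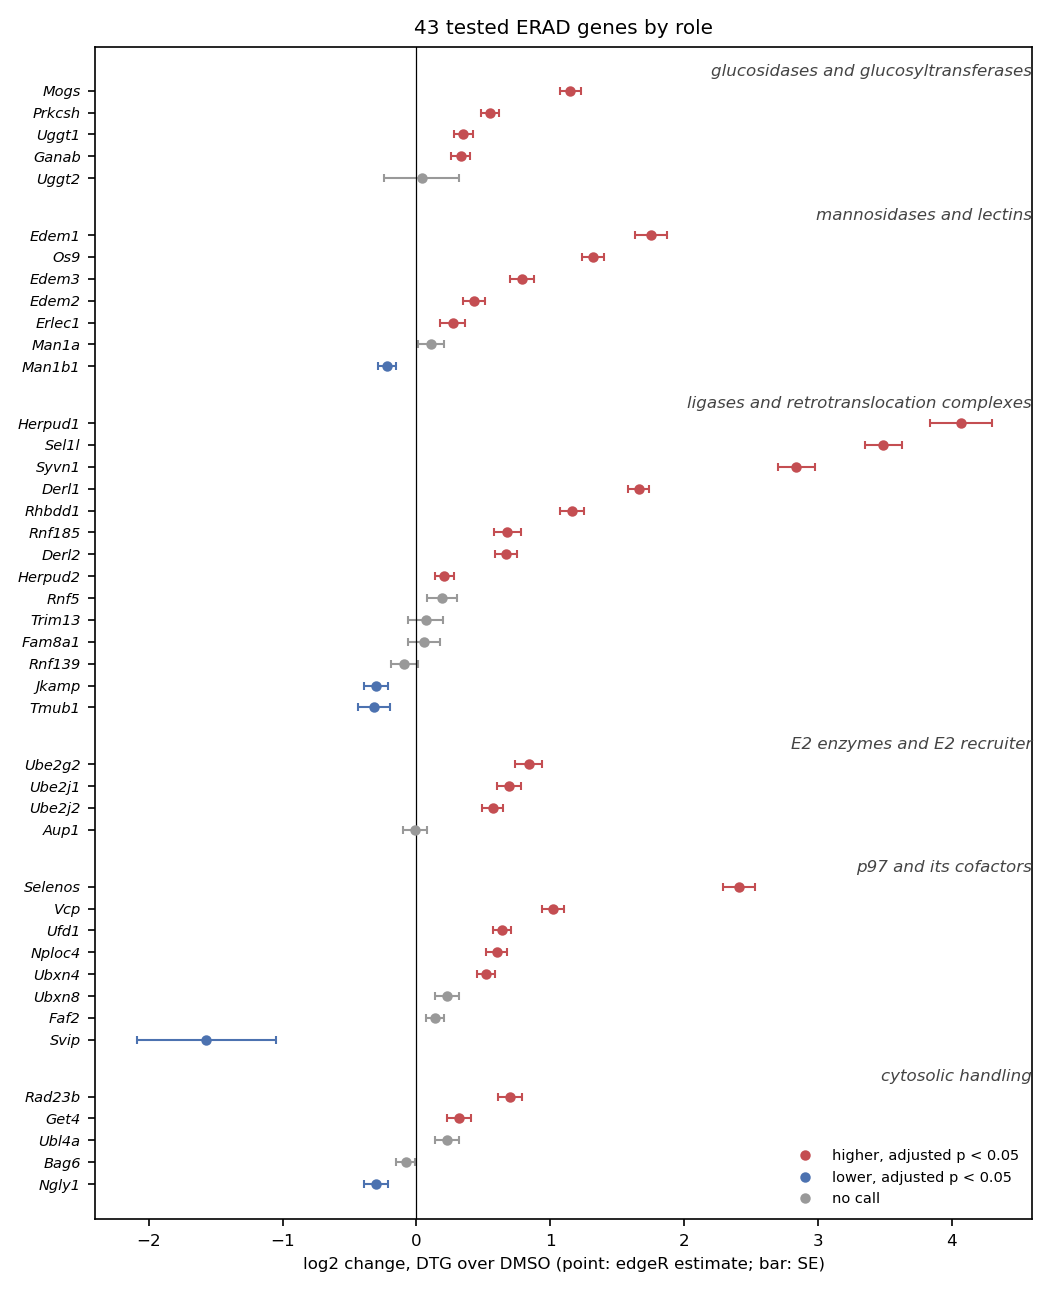
Log2 change of DTG over DMSO for the 43 tested ERAD genes, one row per gene, grouped by role; points are edgeR estimates, bars are SE, and colour gives the call. Herpud1, Sel1l, Syvn1 and Selenos stand at 2.41 or above, Svip stands at -1.57, and the other 38 lie between -0.32 and 1.75.

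**Figure D2:**
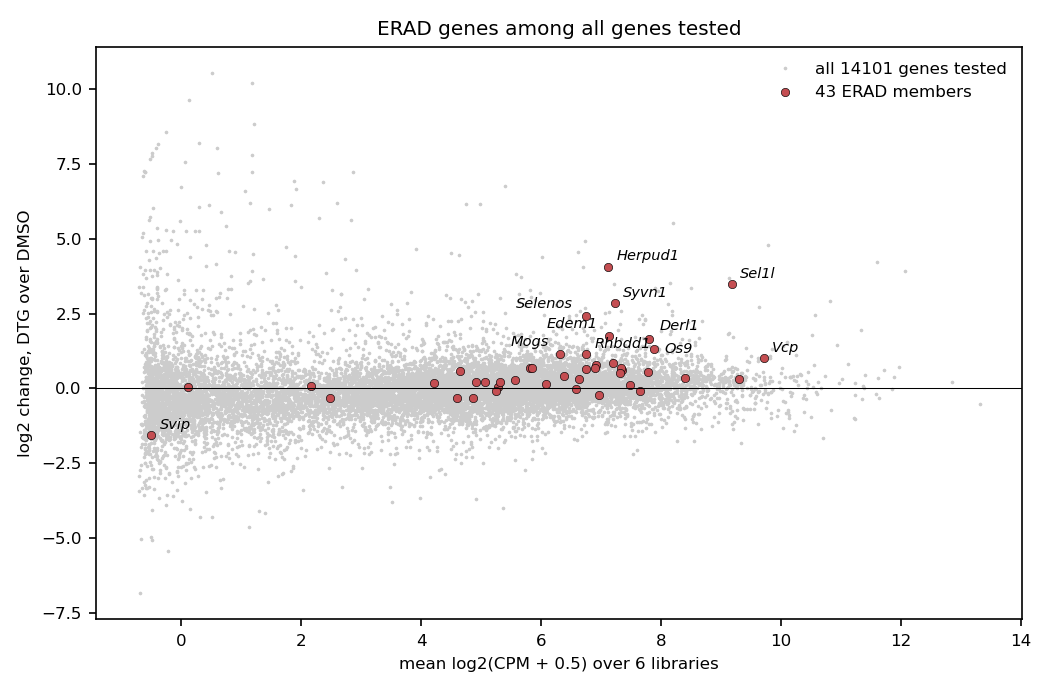
Log2 change of DTG over DMSO against mean log2(CPM + 0.5) over the 6 libraries, for all 14101 genes tested (grey) and the 43 tested ERAD genes (red). Members with a change of at least 1 in either direction are named, and 10 of these 11 lie above 0.

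The SEL1L-HRD1 ligase complex held the largest rises. Herpud1, an ER membrane protein that assembles with HRD1, had 382, 694 and 651 CPM in the 3 DTG libraries, against 32.4, 37.3 and 33.3 CPM in the 3 DMSO libraries. Every DTG library was far above every DMSO library, and DTG replicate 1 was the lowest of its group. The log2 change was 4.07 ± 0.23 (SE, adjusted p = 4.24e-06), a 16.8-fold rise.

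Sel1l, the adaptor that brings substrates to HRD1, had 1517, 2246 and 2094 CPM in DTG libraries and 171, 171 and 181 CPM in DMSO libraries. The groups were wide apart and DTG replicate 1 was again lowest. Its log2 change was 3.49 ± 0.14 (SE, adjusted p = 8.12e-08), the smallest p of the members. Syvn1, which encodes HRD1 itself, had 314, 463 and 431 CPM in DTG libraries and 59.3, 55.7 and 53.9 CPM in DMSO libraries. These values did not overlap either, and the log2 change was 2.84 ± 0.14 (SE, adjusted p = 2.38e-07). The DMSO libraries differed little among themselves for these 3 genes, whereas the DTG libraries spread with replicate 1 below the others.

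**Figure D3:**
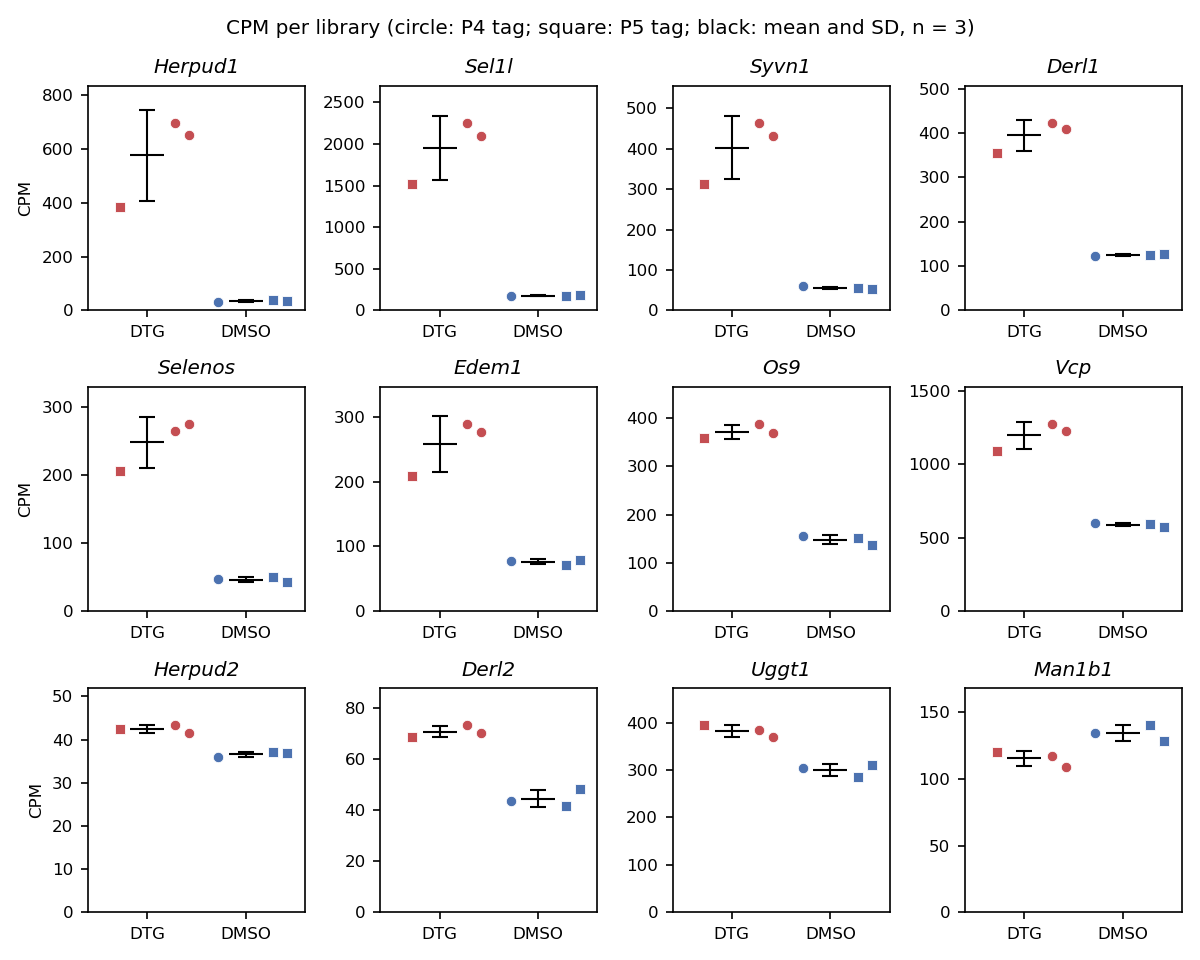
CPM in each library for 12 members, DTG left of DMSO, with circles for the P4 tag, squares for the P5 tag and black lines for mean and SD (n = 3). The DTG points of Herpud1 lie between 382 and 694 and its DMSO points between 32.4 and 37.3, whereas Herpud2 averages 42.4 in DTG and 36.7 in DMSO libraries.

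The promoters of Herpud1, Herpud2, Syvn1, Derl3 and Vcp are shown because they hold, or in the case of Herpud2 lack, elements that ATF6, XBP1 or ATF4 are known to bind. They are RefSeq sequences of build GRCm38.p6, from 250 bases before the gene's start to 50 bases after it, read 5′ to 3′ on the gene's strand. The counts were made on another build, GRCm39, and genes were matched by name. Capitals mark exact matches, on either strand, to the ER stress element ERSE (CCAAT, any 9 bases, CCACG), ERSE-II (ATTGG, any 1 base, CCACG), the core of the UPR element (TGACGTGG) or the C/EBP-ATF element that ATF4 binds (TGATGNAAN). The first 3 of these share the letters CCACG, on one strand or the other.
Herpud1, chr8:94386179-94386478, plus strand: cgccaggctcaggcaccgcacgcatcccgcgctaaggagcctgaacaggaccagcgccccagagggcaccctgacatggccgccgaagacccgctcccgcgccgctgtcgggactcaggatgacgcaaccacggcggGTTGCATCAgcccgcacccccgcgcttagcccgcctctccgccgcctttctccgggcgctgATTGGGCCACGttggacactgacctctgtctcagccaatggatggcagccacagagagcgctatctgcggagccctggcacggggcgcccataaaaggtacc
Herpud2, chr9:25151732-25152031, minus strand: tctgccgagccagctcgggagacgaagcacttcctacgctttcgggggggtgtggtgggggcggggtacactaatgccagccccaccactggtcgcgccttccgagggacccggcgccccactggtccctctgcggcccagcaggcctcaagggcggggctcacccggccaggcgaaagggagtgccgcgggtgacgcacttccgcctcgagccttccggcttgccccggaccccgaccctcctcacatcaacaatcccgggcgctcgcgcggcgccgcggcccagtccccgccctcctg
Syvn1, chr19:6046326-6046625, plus strand: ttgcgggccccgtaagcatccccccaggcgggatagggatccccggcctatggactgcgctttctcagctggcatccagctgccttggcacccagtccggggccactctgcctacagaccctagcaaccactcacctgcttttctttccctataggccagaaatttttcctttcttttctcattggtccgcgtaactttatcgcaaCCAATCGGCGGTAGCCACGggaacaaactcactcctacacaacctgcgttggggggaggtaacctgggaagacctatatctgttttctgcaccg
Derl3, chr10:75893148-75893447, plus strand: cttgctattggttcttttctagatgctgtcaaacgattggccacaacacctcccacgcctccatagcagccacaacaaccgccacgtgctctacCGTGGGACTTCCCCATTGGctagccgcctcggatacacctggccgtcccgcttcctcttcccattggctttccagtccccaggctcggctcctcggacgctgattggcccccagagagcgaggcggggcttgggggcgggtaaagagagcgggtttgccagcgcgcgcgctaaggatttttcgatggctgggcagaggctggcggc
Vcp, chr4:43000458-43000757, minus strand: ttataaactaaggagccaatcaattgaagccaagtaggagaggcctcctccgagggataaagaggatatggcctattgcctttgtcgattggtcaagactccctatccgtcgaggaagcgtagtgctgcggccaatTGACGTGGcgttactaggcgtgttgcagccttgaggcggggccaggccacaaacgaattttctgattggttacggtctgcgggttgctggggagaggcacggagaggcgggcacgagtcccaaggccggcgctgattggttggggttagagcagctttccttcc

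Herpud1 holds an ERSE-II that spans positions -52 to -42 from the start, and an ATF4-type element on the opposite strand at -113 to -105. Syvn1 holds an ERSE at -44 to -26, and Derl3 holds one on the opposite strand at -156 to -138. Vcp and Ube2j1 each hold a UPR element core, at -114 to -107 and at -68 to -61, and Faf2 holds an ATF4-type element. Promoters were given for 37 of the 44 members, and not for Aup1, Derl1, Erlec1, Rnf139, Rnf5, Ube2g2 and Ubxn8. The exact ERSE stood in 2 of these 37 genes (5.41%), against 0.119% of all 32851 promoters and 0.137% of all 27025 genes with a promoter. ERSE-II stood in 1 of the 37 genes, against 0.0365% of all promoters. The UPR core stood in 2 of the 37, against 0.676% of all promoters, and the ATF4-type element in 2 of the 37, against 3.95%.

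Allowing 1 of the 10 fixed letters of ERSE to change, a search added after the exact matches were seen, found a match in 7 of the 37 members (18.9%) and in 1.72% of all genes with a promoter. The 7 were Derl2, Derl3, Herpud1, Rhbdd1, Sel1l, Syvn1 and Vcp. All of them but the untested Derl3 rose, by between 0.67 and 4.07 on the log2 scale. Members whose promoters held no such match rose too, with the largest of those rises in Selenos, Edem1, Os9 and Mogs, by 2.41, 1.75, 1.32 and 1.15. The 5 members that fell held no match either, as was the case for most of the 37. Outside the members, 118 of 236 tested genes with such a match rose and 55 fell (23.3%). Of 10059 tested genes without one 2832 rose (28.2%) and 3007 fell (29.9%). With the members counted in, 2850 of 10089 tested genes without one rose and 3012 fell. Of 13 tested non-members with an exact ERSE, 11 rose and 2 fell. A match is a description of letters in this window and was not tested as a binding site. Whether a match bears on the rise or fall of a gene was not tested either.

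The Derlins, membrane proteins that form part of the exit channel with HRD1, were unequal. Derl1 had 356, 422 and 409 CPM in DTG libraries and 122, 126 and 128 CPM in DMSO libraries. All DTG values were far above any DMSO value, and the log2 change was 1.66 ± 0.08 (SE, adjusted p = 3.29e-07). Derl2 had 68.9, 73.3 and 70.3 CPM in DTG libraries and 43.6, 41.8 and 48.2 CPM in DMSO libraries, with no overlap and a log2 change of 0.67 ± 0.08. Derl3 had 1 count in DTG replicate 1 and 0 in the other 5 libraries, at or under the floor of 3 counts, although its promoter is one of the 2 among the members with an exact ERSE.

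Herpud2, the close relative of Herpud1, had 42.4, 43.3 and 41.6 CPM in DTG libraries and 36.0, 37.1 and 36.9 CPM in DMSO libraries. The groups did not overlap, and the small rise of 0.21 ± 0.07 passed (adjusted p = 0.0273). Of 15 alternative settings 8 ended it, 4 of them by dropping DTG replicate 2 or 3 or DMSO replicate 1 or 2 (adjusted p = 0.0748, 0.0558, 0.0803 and 0.0589, within 0.0139 to 0.654 over all settings). Fam8a1, a cofactor of HRD1, averaged 39.4 ± 0.639 CPM in DTG and 37.8 ± 7.36 CPM in DMSO libraries (SD, n = 3 each) and did not pass (log2 change 0.06). Without DMSO replicate 3, whose 46.1 CPM is the highest of its group, Fam8a1 passed as higher (log2 change 0.23, adjusted p = 0.0247, within 0.0247 to 0.957 over all settings). Jkamp, which links the ER membrane to the proteasome, averaged 25.8 ± 2.50 CPM in DTG and 31.9 ± 1.17 CPM in DMSO libraries. Its fall of 0.30 on the log2 scale passed (adjusted p = 0.0156), but not once DTG replicate 2, DTG replicate 3 or DMSO replicate 2 was dropped (adjusted p = 0.106, 0.104 and 0.0521, within 0.00162 to 0.106 over all settings).

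Outside the HRD1 complex, the changes of the ligase genes and their partners lay between -0.32 and 1.16 on the log2 scale. Rhbdd1, a rhomboid protease that cuts ubiquitinated membrane substrates, averaged 160 ± 16.6 CPM in DTG and 71.7 ± 2.02 CPM in DMSO libraries (SD, n = 3 each), a log2 change of 1.16. Rnf185, a ligase of membrane substrates, averaged 151 ± 19.2 CPM in DTG and 94.5 ± 5.42 CPM in DMSO libraries, a rise of 0.68 on the log2 scale. Its relative Rnf5 averaged 19.5 ± 0.761 CPM in DTG and 17.1 ± 2.29 CPM in DMSO libraries and did not pass (log2 change 0.19, adjusted p = 0.164), although the groups did not overlap. Rnf139, the sterol-linked ligase TRC8, averaged 36.4 ± 1.34 CPM in DTG and 38.7 ± 4.81 CPM in DMSO libraries and did not pass (log2 change -0.09). Scaled by library size it passed as lower (log2 change -0.26, adjusted p = 0.0399, within 0.0399 to 0.930 over all settings). The ligase gene Trim13 averaged 4.11 ± 0.395 CPM in DTG and 3.93 ± 0.212 CPM in DMSO libraries, with overlap and a log2 change of 0.07 that did not pass. Rnf139 shares 22.3% of its exon bases with Tatdn1 on the opposite strand, and the strand setting of the counting is not given, so reads of the pair cannot be told apart. Tmub1, a partner of Rnf185 in the membrane, averaged 4.56 ± 0.407 CPM in DTG and 5.67 ± 0.171 CPM in DMSO libraries. Its fall of 0.32 on the log2 scale had adjusted p = 0.0457, and 10 of 15 alternative settings ended the call. Among them, dropping DTG replicate 2 or 3 or DMSO replicate 1, 2 or 3 gave adjusted p = 0.243, 0.127, 0.0807, 0.125 and 0.0568, within 0.00688 to 0.243 over all settings.

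Among mannosidases and lectins 5 of 7 members rose and 1 fell (85.7% called, against 56.7% of all genes). The median log2 change was 0.43. Edem1, which helps to trim mannose from misfolded glycoproteins, had 208, 288 and 277 CPM in DTG libraries and 77.7, 72.2 and 79.2 CPM in DMSO libraries. The groups were apart, with DTG replicate 1 the lowest of its group, and the log2 change was 1.75 ± 0.12 (SE, adjusted p = 1.83e-06). Its relatives had smaller changes. Edem3 had 143, 170 and 164 CPM in DTG libraries and 89.8, 84.9 and 100 CPM in DMSO libraries, a log2 change of 0.79 ± 0.09. Edem2 had 98.1, 94.4 and 95.1 CPM in DTG libraries and 73.5, 74.2 and 65.7 CPM in DMSO libraries, a log2 change of 0.43 ± 0.08. Neither gene's groups overlapped.

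The lectin gene Os9, whose product hands trimmed glycoproteins to SEL1L, had 357, 386 and 369 CPM in DTG libraries and 155, 152 and 138 CPM in DMSO libraries. All DTG values were above all DMSO values and the log2 change was 1.32 ± 0.08 (SE, adjusted p = 7.63e-07), the smallest p of this role. Erlec1, the other lectin of that step, averaged 51.5 ± 2.65 CPM in DTG and 42.6 ± 4.31 CPM in DMSO libraries (SD, n = 3 each) and rose by 0.27 on the log2 scale (adjusted p = 0.0239). Dropping DMSO replicate 1 or 2 ended that call (adjusted p = 0.0937 and 0.0947), as did scaling by library size or upper quartile (adjusted p = 0.346 and 0.108, within 0.00427 to 0.346 over all settings). Man1b1, a mannosidase of early trimming, averaged 115 ± 5.52 CPM in DTG and 134 ± 5.58 CPM in DMSO libraries. It fell by 0.22 on the log2 scale (adjusted p = 0.0255), which 6 of 15 alternative settings ended. Dropping DTG replicate 2 or 3 or DMSO replicate 1 or 2 gave adjusted p = 0.104, 0.207, 0.0630 and 0.0889, within 0.00130 to 0.207 over all settings. Man1a, a Golgi mannosidase, averaged 186 ± 14.6 CPM in DTG and 172 ± 20.5 CPM in DMSO libraries and did not pass (log2 change 0.11, adjusted p = 0.365).

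The enzymes that hold glycoproteins in the folding cycle rose modestly, with a median log2 change of 0.35. Of the 5 genes 4 passed (80.0%, against 56.7% of all genes). Mogs, glucosidase I, which removes the first glucose of the glycan, had 118, 121 and 116 CPM in DTG libraries and 55.7, 55.5 and 48.9 CPM in DMSO libraries. The groups did not overlap, the DTG values lay close together, and the log2 change was 1.15 ± 0.08 (SE, adjusted p = 1.99e-06). Prkcsh, the regulatory subunit of glucosidase II, had 262, 272 and 261 CPM in DTG libraries and 191, 181 and 170 CPM in DMSO libraries, a log2 change of 0.55 ± 0.07. Its catalytic partner Ganab averaged 703 ± 16.8 CPM in DTG and 560 ± 15.3 CPM in DMSO libraries (SD, n = 3 each), a rise of 0.33 on the log2 scale that missed the threshold when scaled by library size (adjusted p = 0.0859, within 6.96e-06 to 0.0859 over all settings).

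Uggt1, the glucosyltransferase that recognises unfolded glycoproteins, had 394, 385 and 369 CPM in DTG libraries and 304, 285 and 311 CPM in DMSO libraries. The groups did not overlap and the log2 change was 0.35 ± 0.07 (SE, adjusted p = 0.00213), a call that scaling by library size took away (adjusted p = 0.0550, within 8.39e-06 to 0.0550 over all settings). Uggt2 had 0.799, 0.412 and 0.581 CPM in DTG libraries and 0.571, 0.522 and 0.668 CPM in DMSO libraries. Its groups overlapped, it rested on 92 counts in DTG and 89 in DMSO libraries, and it did not pass (adjusted p = 0.924).

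The 3 E2 enzymes rose, by 0.57 to 0.84 on the log2 scale, with a median of 0.63 over the role when the recruiter Aup1 is included. With Aup1, 75.0% of the role was called, against 56.7% of all genes. Ube2g2, the E2 that serves several ER ligases, had 174, 210 and 202 CPM in DTG libraries and 110, 119 and 99.2 CPM in DMSO libraries. No value overlapped, and the log2 change was 0.84 ± 0.10 (SE, adjusted p = 5.20e-05). Ube2j1, the membrane-anchored E2 of HRD1, had 67.6, 75.1 and 75.5 CPM in DTG libraries and 41.2, 45.4 and 49.1 CPM in DMSO libraries, a log2 change of 0.69 ± 0.09. Ube2j2, its relative, had 28.3, 31.7 and 30.2 CPM in DTG libraries and 19.7, 21.1 and 20.1 CPM in DMSO libraries, a log2 change of 0.57 ± 0.08. For both genes every DTG library was above every DMSO library. Aup1, which recruits UBE2G2 to the membrane, averaged 94.7 ± 6.35 CPM in DTG and 95.6 ± 8.47 CPM in DMSO libraries (SD, n = 3 each), a log2 change of -0.01 ± 0.09 (adjusted p = 0.907). Aup1 shares 23.0% of its exon bases with Htra2 on the opposite strand.

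Of the 8 genes of p97 and its cofactors 5 rose and 1 fell (75.0% called, against 56.7% of all genes). The fall was that of Svip, which entered the test through its DMSO libraries alone. The median log2 change over the 8 genes was 0.56. Vcp, the gene of p97, had 1090, 1270 and 1227 CPM in DTG libraries and 601, 592 and 576 CPM in DMSO libraries. The groups were apart and the log2 change was 1.02 ± 0.08 (SE, adjusted p = 5.32e-06). Selenos, a selenoprotein that tethers p97 to the Derlins, had 206, 265 and 275 CPM in DTG libraries and 47.0, 50.5 and 42.8 CPM in DMSO libraries. Its log2 change of 2.41 ± 0.12 (SE, adjusted p = 2.77e-07) was the largest rise of this role, and again DTG replicate 1 was the lowest of its group.

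The adaptor pair of p97 rose to a similar degree. Ufd1 averaged 133 ± 7.84 CPM in DTG and 85.3 ± 2.56 CPM in DMSO libraries (SD, n = 3 each), and Nploc4 averaged 200 ± 15.1 CPM in DTG and 132 ± 6.26 CPM in DMSO libraries. Their log2 changes were 0.64 ± 0.07 and 0.60 ± 0.08. The membrane cofactors with a UBX domain, which dock p97, differed among themselves. Ubxn4 rose by 0.52 on the log2 scale, to 190 ± 7.45 CPM in DTG against 133 ± 4.46 CPM in DMSO libraries. Faf2 averaged 70.4 ± 1.83 CPM in DTG and 64.0 ± 1.41 CPM in DMSO libraries and did not pass (log2 change 0.14, adjusted p = 0.113). Ubxn8 averaged 32.3 ± 2.76 CPM in DTG and 27.6 ± 1.57 CPM in DMSO libraries (log2 change 0.23, adjusted p = 0.0558). It passed as higher without DTG replicate 1, with RLE scaling and with DESeq2 (adjusted p = 0.00802, 0.0430 and 0.0403, within 0.00802 to 0.619 over all settings).

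Svip, a small inhibitor of p97 that damps ERAD, had 0.167, 0.118 and 0.0415 CPM in DTG libraries and 0.236, 0.236 and 0.553 CPM in DMSO libraries. The groups did not overlap, but these values come from 17 counts in all DTG libraries and 50 in all DMSO libraries. Its log2 change was -1.57 ± 0.52 (SE, adjusted p = 0.0244). Dropping DTG replicate 2, DTG replicate 3 or DMSO replicate 3 ended the call (adjusted p = 0.0554, 0.0878 and 0.112, within 0.00940 to 0.112 over all settings).

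Cytosolic handling had the lowest median of the 6 roles, a log2 change of 0.23. Of its 5 genes 2 were higher and 1 lower (60.0% called, near the 56.7% of all genes). Rad23b, which shuttles ubiquitinated proteins to the proteasome, had 191, 219 and 208 CPM in DTG libraries and 118, 123 and 141 CPM in DMSO libraries. The groups did not overlap and the log2 change was 0.70 ± 0.09 (SE, adjusted p = 1.04e-04). In the BAG6 complex, which keeps extracted membrane proteins soluble, Get4 had 104, 112 and 117 CPM in DTG libraries and 90.6, 95.8 and 79.7 CPM in DMSO libraries. That difference of 0.32 ± 0.09 passed (adjusted p = 0.00984) but missed the threshold when scaled by library size (adjusted p = 0.158, within 0.00154 to 0.158 over all settings).

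The other 2 subunits of that complex did not pass. Bag6 averaged 196 ± 6.22 CPM in DTG and 207 ± 10.5 CPM in DMSO libraries (SD, n = 3 each), with a log2 change of -0.08 and adjusted p = 0.375. Scaled by library size it passed as lower (log2 change -0.25, adjusted p = 0.0136, within 0.0136 to 0.805 over all settings). Ubl4a averaged 35.8 ± 0.514 CPM in DTG and 30.5 ± 3.22 CPM in DMSO libraries (log2 change 0.23, adjusted p = 0.0537). It passed as higher without DTG replicate 1 or DMSO replicate 2 (adjusted p = 0.0324 and 0.0366), with RLE scaling and with DESeq2 (adjusted p = 0.0380 and 0.0337, within 0.0324 to 0.617 over all settings). Ngly1, which strips N-glycans from retrotranslocated proteins, averaged 21.4 ± 0.812 CPM in DTG and 26.5 ± 1.80 CPM in DMSO libraries and fell by 0.30 on the log2 scale (adjusted p = 0.0123). Dropping DTG replicate 2 or 3 ended that call (adjusted p = 0.0524 and 0.0604, within 8.32e-04 to 0.0604 over all settings).

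Summed over each role, the ligase and retrotranslocation genes had the highest ratio of the 6 roles. Of their 14 tested genes 8 rose and 2 fell (71.4% called, against 56.7% of all genes). Yet their median log2 change of 0.44 lay below those of the E2 enzymes and of p97 and its cofactors. Their summed level was 3086, 4405 and 4151 CPM in DTG libraries and 752, 774 and 792 CPM in DMSO libraries, a ratio of group means of 5.02. In DTG libraries most of that sum came from Sel1l, Herpud1, Syvn1 and Derl1, the 4 genes of the role with a log2 change over 1.5. They summed to 3327 ± 667 CPM in DTG and 390 ± 5.83 CPM in DMSO libraries (SD, n = 3 each). Since they were picked by their change in these data, a higher ratio than that of the rest follows from the choice. The other 11 genes of the role summed to 554 ± 32.7 CPM in DTG and 382 ± 14 CPM in DMSO libraries, a ratio of 1.45. DTG replicate 1 was the lowest of its group in both sums. Over whole roles the ratio was 1.92 for p97 and its cofactors, 1.68 for mannosidases and lectins, 1.45 for the E2 enzymes with Aup1, 1.34 for glucosidases and glucosyltransferases, and 1.19 for cytosolic handling. All 44 members together summed to 8579, 10349 and 9931 CPM in DTG libraries and 4434, 4449 and 4413 CPM in DMSO libraries. The DMSO sums lay close together (SD 18.3 CPM), whereas the DTG sums had an SD of 925 CPM.

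**Figure D4:**
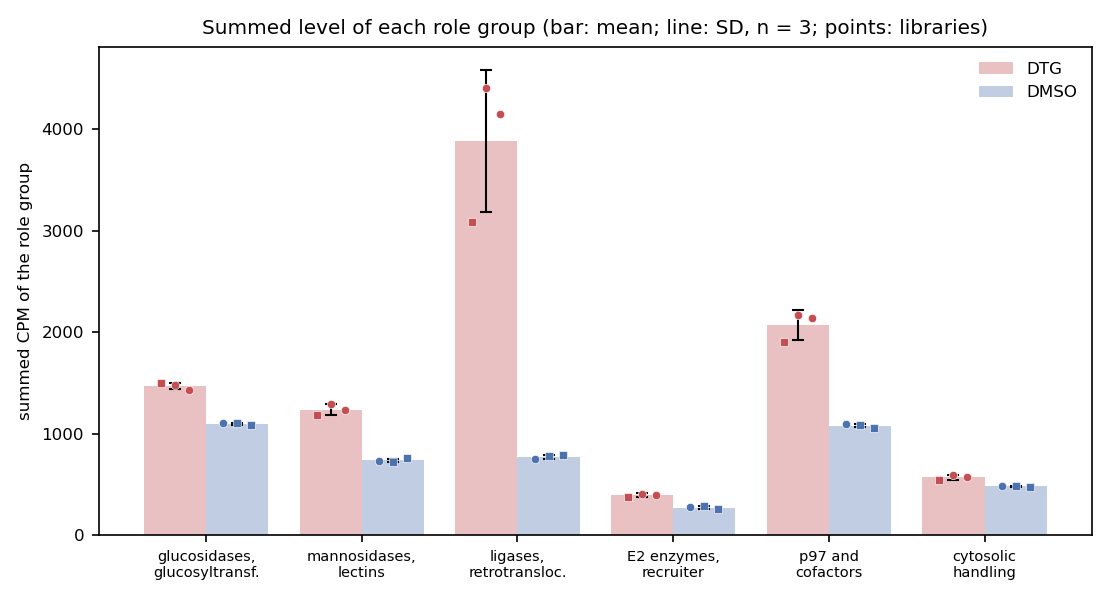
Summed CPM of the members of each role, DTG left of DMSO, with bars for the mean, lines for the SD (n = 3) and points for libraries (circle P4, square P5). The ligase and retrotranslocation genes average 3881 in DTG and 773 in DMSO libraries, and cytosolic handling 570 and 480.

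Per kilobase of exon, with all annotated exons of a gene merged, the make-up of the machinery differed between the groups. This length can exceed that of any single transcript, which lowers the level of such a gene. Vcp had 225, 262 and 253 CPM per kilobase in DTG libraries and 124, 122 and 119 CPM per kilobase in DMSO libraries. Its share of the summed per-length level of the 44 genes was 11.3% ± 0.285 in DTG and 12.5% ± 0.189 in DMSO libraries (SD, n = 3 each). Herpud1 had 164, 298 and 279 CPM per kilobase in DTG libraries and 13.9, 16 and 14.3 CPM per kilobase in DMSO libraries. Its share was 11.2% ± 2.33 in DTG and 1.51% ± 0.0969 in DMSO libraries. Herpud1 was thus above Vcp in DTG replicates 2 and 3 and below it in DTG replicate 1, and their mean shares in DTG libraries did not differ beyond that spread. By mean share Herpud1 ranked 2 of 44 in DTG and 22 of 44 in DMSO libraries. Sel1l reached 228 CPM per kilobase in DTG against 20.4 in DMSO libraries and ranked 3 and 18, while Syvn1 ranked 8 and 28. Ganab, Uggt1 and Bag6 ranked 6, 20 and 18 in DTG libraries and 2, 15 and 8 in DMSO libraries.

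Ratios between 2 genes within a library do not depend on how libraries are scaled, and 15 pairs were compared. For 10 of them the DTG and DMSO libraries did not overlap, against 64.2% of single genes. Each of those 10 had p = 0.1 in the two-sided exact permutation test, the smallest that 3 against 3 libraries allow, and adjusted p = 0.150 over the 15 pairs, so no pair passed. The log2 ratio of Herpud1 to Herpud2 was 3.17, 4.00 and 3.97 in DTG libraries and -0.15, 0.01 and -0.15 in DMSO libraries. The relatives thus had nearly equal counts in DMSO libraries and differed widely in each DTG library. Equal counts are not equal levels, since the merged exons span 2333 bases in Herpud1 and 5857 in Herpud2. Per kilobase of exon, the linear ratio of Herpud1 to Herpud2 was 34.0 ± 9.90 in DTG and 2.35 ± 0.150 in DMSO libraries (SD, n = 3 each).

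The ratio of Sel1l to Syvn1 was 2.27, 2.28 and 2.28 in DTG libraries and 1.52, 1.61 and 1.75 in DMSO libraries on the log2 scale. It varied less between the DTG libraries than either gene did, but more than either gene did between the DMSO libraries, where its SD was 0.11. Per kilobase of exon, the linear ratio of Sel1l to Syvn1 was 2.75 ± 0.00944 in DTG and 1.76 ± 0.138 in DMSO libraries (SD, n = 3 each). The ratio of Ufd1 to Nploc4 was -0.56, -0.62 and -0.58 in DTG libraries and -0.73, -0.56 and -0.59 in DMSO libraries. These overlapped, with a difference of 0.04 (exact permutation p = 0.6).

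Within other families the DTG minus DMSO difference in log2 ratio was -0.98 for Derl2 to Derl1, 0.95 for Edem1 to Edem3 and 1.05 for Os9 to Erlec1. For all 3 the groups did not overlap. They overlapped for Ube2j1 to Ube2j2, with a difference of 0.12 (exact permutation p = 0.3), and for Edem2 to Edem3, with a difference of -0.36 (exact permutation p = 0.2). Ganab to Prkcsh differed by -0.23, Man1b1 to Man1a by -0.34 and Rnf5 to Rnf185 by -0.47, without overlap. Ratios with Derl3, Svip and Uggt2 rest on few counts. They differed by -1.13 for Derl3 to Derl1 and 0.37 for Uggt1 to Uggt2, both with overlap, and by -2.64 for Svip to Vcp without it.

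**Figure D5:**
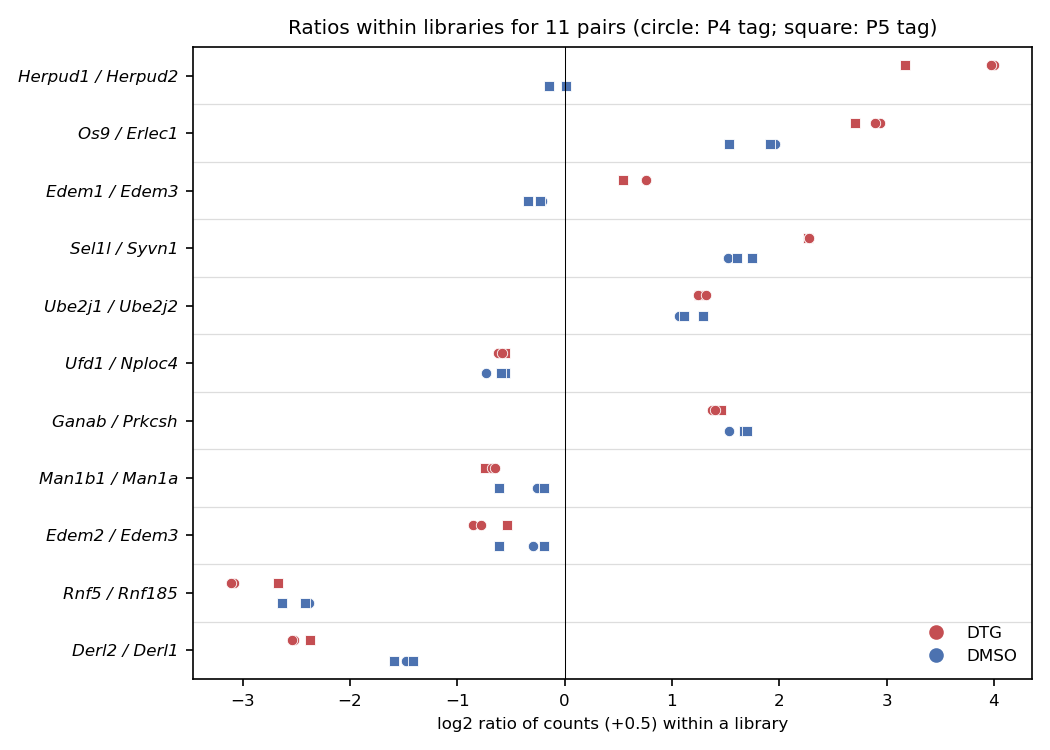
Log2 ratio of counts between 2 genes within each library for 11 pairs, DTG above DMSO in each row, with circles for the P4 tag and squares for the P5 tag. Herpud1 / Herpud2 is separated by 3.81 between group means, whereas the DTG and DMSO points of Ufd1 / Nploc4 and Ube2j1 / Ube2j2 overlap.

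DTG replicate 1 was the lowest DTG library for 19 of the 27 members that rose, and for 9 of the 10 that rose by at least 1 on the log2 scale. Over all genes that rose DTG replicate 1 was lowest in 72.9%, and over all that rose by at least 1 in 78.9%. Its level was 0.568 of the mean of DTG replicates 2 and 3 for Herpud1, 0.699 for Sel1l and 0.703 for Syvn1, but 0.999 for Mogs and 1.05 for Uggt1. Within the P4 libraries the changes of Herpud1, Sel1l and Syvn1 were 4.35, 3.66 and 2.90 on the scale of log2(CPM + 0.5), and within the P5 libraries 3.42, 3.11 and 2.51. The median over the tested members was 0.38 within P4 and 0.45 within P5. The tag and DTG replicate 1 cannot be told apart, since no other DTG library has P5. A term for treatment by tag, added after seeing the data, passed for 0 of 43 members in edgeR and for 0 of all 14101 genes. Of the members 7 had an unadjusted p under 0.05. The share of all genes at that unadjusted p was not counted, so the 7 cannot be set against it. No other tool was run on that term.

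The rest of the pathway was read from a further list of 66 genes. Of 65 tested 28 rose (43.1%, against 27.4% of all genes) and 5 fell, with a median log2 change of 0.17. In either direction 33 of 65 passed (50.8%), against 56.7% of all genes. With library-size scaling 16 rose and 12 fell, and with upper-quartile factors 23 and 8. The largest rises were in Sdf2l1, Hspa5 and Dnajb9, ER chaperones and cochaperones that deliver clients to the machinery, at 4.55 ± 0.11, 4.22 ± 0.14 and 4.06 ± 0.18 on the log2 scale. Among the falls were those of the mannosidase gene Man1c1 and the deubiquitinase gene Usp25, by 0.70 ± 0.22 and 0.55 ± 0.07 (SE). Man1c1 had 34.0, 19.1 and 18.7 CPM in DTG libraries and 36.1, 40.8 and 40.0 CPM in DMSO libraries. DTG replicate 1 thus lay close to the DMSO values. The change of Man1c1 was -0.91 within P4 and -0.24 within P5 libraries on the scale of log2(CPM + 0.5).

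Among the other ER ligases and membrane factors 10 of 25 rose and the other 15 did not pass, so 40.0% were called, against 56.7% of all genes. Marchf6, an ER ligase picked from this list after its values were seen, had 133, 156 and 149 CPM in DTG libraries and 112, 122 and 147 CPM in DMSO libraries, with overlap (adjusted p = 0.137). Among the other p97 cofactors 7 of 12 rose and 1 fell (66.7% called), and among the other E2, E4 and deubiquitinating enzymes 7 of 16 rose and 1 fell (8 of 16 called). Among the other genes of glycan and cytosolic handling 4 of 12 rose and 3 fell (58.3% called).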

How the data were processed

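RNA from 6 libraries of mouse brain endothelial cells was sequenced after a stranded mRNA preparation, per the labels' protocols. The deposited table holds gene counts, which the authors made on GRCm39, per the submitters' processing notes; for the aligner, the counter and its strand setting, the sources used here give no name. Of its 43271 identifiers 38606 (89.2%) were paired with symbols in GENCODE M21, whose exon lengths also served for levels per kilobase.

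Libraries were grouped by the titles. Genes passing filterByExpr were scaled by TMM and tested with edgeR 4.0.16 (quasi-likelihood F-test, robust), with Benjamini-Hochberg adjustment over all 14101 genes and a threshold of 0.05. SE was taken as |log2 change| over the root of F. CPM are counts scaled by TMM library size. In the plot against level and within tags, 0.5 was added to CPM, and in ratios 0.5 to counts. Pairs were tested by two-sided exact permutation. Recovery was tried on simulated counts for DTG against DMSO, with 13788 genes tested in the first run. Summed over runs, 204, 198 and 198 genes were changed by 0.5, 1 and 2 on the log2 scale. Of these 61.8%, 93.4% and 99.5% were recovered. The simulated share of changed genes was far below the 56.7% called in the data, so recovery in the data may differ. Alternatives used RLE, upper-quartile or library-size scaling, other filters, the P tag, a replicate block, DESeq2 1.42.0, limma-voom 3.58.1 and leaving out each library.

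The members and lists were chosen with earlier results of these data known. Values per library are given for the ERAD genes that form families or core complexes and for the 2 smallest p per role, and group means or log2 changes for the others. Of the other ERAD genes, the 3 largest called rises and falls with at least 5 CPM in the higher group were to be named; 1 of them, and 1 of the pairs, is not reported here. Counting precision rests on 41162353 to 56316335 counts per library.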

Additional observations from a re-analysis of the deposited data

How the results depend on the processing

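Of the 32 called members, 22 kept their call in all 15 alternatives, including all 10 with a rise of at least 1 on the log2 scale, and 10 lost it in at least 1. Of the 11 without a call, 5 gained one in at least 1 alternative. The labels do not say that replicate numbers pair the samples. Deviations from the group mean correlated at -0.282, 0.00917 and -0.052 between same-numbered libraries, and at -0.161 to 0.196 between differently numbered ones. With 3 libraries per group these values cannot show whether the numbers mark pairs. With the replicate block 3 members fell, none of them a mannosidase or lectin (0) and 1 a ligase gene. Without a count filter the same counts were 3, 0 and 1, and 1 ligase gene also fell with RLE scaling, with the P tag as a term and with DESeq2. The 1 CPM filter left 0 lower genes among p97 and its cofactors, since Svip was not tested. Library-size scaling gave 2536 genes higher in all (5730 lower), 16 higher and 12 lower other ERAD genes, 2 higher glucosidase-role genes, and 1 higher and 2 lower cytosolic genes. Upper-quartile factors gave 3069 genes higher and 4963 lower in all, and 8 lower other ERAD genes. The median of the members was 0.34 with upper-quartile and 0.26 with library-size scaling, 0.48 without a filter, 0.51 with the 1 CPM filter and 0.38 within P4 libraries. Leaving out 1 library gave medians of 0.38 to 0.47, 0 to 5 lower members (0 to 1 mannosidases and lectins, 0 to 2 ligases, 0 to 1 for p97, 0 to 1 cytosolic) and 2 to 5 lower other ERAD genes. The cause of these shifts was not tested.

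Signs turned for 7 uncalled members. Uggt2 was -0.06 with upper-quartile scaling, -0.13 with library size, -0.00 with the block and with limma-voom, and -0.20 to 0.27 when leaving out 1 library. With library-size scaling Man1a was -0.06, Fam8a1 -0.11, Trim13 -0.10 and Faf2 -0.03, and with upper-quartile scaling Fam8a1 and Trim13 were both -0.03. Leaving out 1 library gave -0.04 to 0.23 for Fam8a1, -0.17 to 0.01 for Rnf139, -0.09 to 0.05 for Aup1 and -0.01 to 0.08 for the ratio of Ufd1 to Nploc4. Aup1 was 0.01 with RLE scaling and with DESeq2. Low counts limit Svip, Uggt2 and Derl3.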
